A study of Mus musculus with 11 samples.

Results

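Amacrine cells are the inhibitory interneurons of the inner retina, and the 9 genes described here mark their transmitter classes and their fate. They are Gad1, Gad2 and Slc32a1 for GABA, Slc6a9 for glycine, Chat for acetylcholine, Th for dopamine, Slc17a8 for a glutamate-releasing subtype, and the transcription factors Tfap2a and Tfap2b. They were chosen by name, as the rows of a table of read counts whose Ensembl identifiers carry these symbols. All 9 were found among the 37991 genes of the table, and all 9 were among the 17099 genes with enough reads to be tested.

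The counts come from right-eye retinas of mice at postnatal day 24, 1 retina and 1 library for each animal. Wild-type C57Bl/6J mice received saline (2 libraries) or the LSD1 inhibitor GSK2879552, called GSK here (3 libraries), and rd10 mice received saline (3 libraries) or GSK (3 libraries). GSK was given at 4.2 mg/kg, and all 4 groups were injected into the peritoneum every day from postnatal day 9 to day 24. The rd10 mice carry a mutant germline allele of Pde6b, a rod phosphodiesterase subunit, on a strain labelled B6.CXB1-Pde6brd10/Jrd10. Every rd10 library is of that strain and every wild-type library of C57Bl/6J, so that the mutation and the rest of the strain background cannot be told apart. The study's title names LSD1, HDAC1 and rod death in Retinitis Pigmentosa. Amacrine cells do not carry rod phosphodiesterase and receive rod signals through bipolar cells.

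GABA is made from glutamate by the glutamate decarboxylases Gad1 and Gad2, and GABA and glycine are both loaded into vesicles by the carrier that Slc32a1 encodes. Slc6a9 encodes the glycine transporter of the plasma membrane through which glycinergic amacrine cells keep their glycine. Starburst amacrine cells, which are needed for direction selectivity, make acetylcholine with Chat. The few dopaminergic amacrine cells use tyrosine hydroxylase (Th), the rate-limiting enzyme of dopamine synthesis, and a small class carries the vesicular glutamate carrier encoded by Slc17a8. Tfap2a and Tfap2b are AP-2 family factors that act when amacrine and horizontal cells form. Several of the 9 are also used by horizontal cells, so none of these RNA levels belongs to amacrine cells alone.

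The genes lie as follows in GENCODE M21 (GRCm38). The GABA genes are on chromosome 2, with Gad1 at chr2:70553072-70602014, Gad2 at chr2:22622205-22693874 and Slc32a1 at chr2:158610767-158615748, all on the plus strand. On the plus strand are also Slc6a9 at chr4:117834506-117875198 and Tfap2b at chr1:19208914-19238576. On the minus strand are Chat at chr14:32408203-32465989, Th at chr7:142892752-142931128, Slc17a8 at chr10:89574020-89621253 and Tfap2a at chr13:40715302-40738376.

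Library totals ran from 19657030 to 28053367 counts. Summed over 8 rod genes, rd10 saline stood at 13.1% to 16.03% of the wild-type saline mean and rd10 GSK at 40.0% to 77.6%. The level of these rod genes thus differed between groups, and the share of a library left for inner retinal RNA was not measured. Levels are in CPM (counts scaled to a common library size). The summed level of lens genes was 7.98 CPM or lower in 9 libraries, 580 CPM in replicate 2 of wild-type saline and 6083 CPM in replicate 2 of rd10 GSK, and the last 2 are called the lens-bearing libraries below. Both sexes were present: Xist did not exceed 0.338 CPM in 4 libraries (1 of wild-type GSK, 1 of rd10 saline and 2 of rd10 GSK) and reached 780.5 CPM or more in 7. In whole retina, fewer cells of a type and less RNA in each cell cannot be told apart, and this holds for every level below.

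Levels per kilobase of exon, the only scale on which different genes are compared here, are given for wild-type saline from highest to lowest. Gad1 was at 60.0 ± 1.67 CPM per kb (SD, n = 2), Slc6a9 at 57.7 ± 0.133, Slc32a1 at 56.3 ± 0.462 and Tfap2b at 49.7 ± 0.795. The gap between Gad1 and Slc6a9 was within the range of the 2 Gad1 libraries, although no 2 of these 4 genes overlapped. Exon lengths are those of GENCODE M21 with all transcripts of a gene merged, and the annotation used for counting is not given. The spread between libraries does not include this choice of length, and whether the order of these 4 genes depends on it was not tested. Gad2 followed at 17.3 ± 0.359 and Tfap2a at 11.2 ± 0.138 CPM per kb. Slc17a8 at 7.57 ± 0.171, Chat at 5.11 ± 0.0895 and Th at 1.83 ± 0.177 CPM per kb, the markers of the rare classes, were lowest. Th was read by only 84 to 155 counts in a library, and Chat by 433 to 541, against 8648 to 11841 for Gad1.

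With TMM, a scaling over all genes, Tfap2a rose in rd10 retinas without drug, and with GSK in rd10 Th rose and Slc17a8 fell. Of the 9, 1 was called between rd10 saline and wild-type saline (Tfap2a, higher) at an edgeR adjusted p under 0.05, which is 11.1% of the genes against 40.5% of all genes tested (21.5% higher and 19.0% lower). Slc32a1 and Slc17a8 were also higher there at an unadjusted p under 0.05, 1.14-fold (95% interval 0.02 to 0.36 on the log2 scale) and 1.24-fold (0.02 to 0.59). None of the 9 was lower at that unadjusted p. The count of 1 was 0 without either wild-type saline replicate or both lens-bearing libraries, and 2 without rd10 GSK replicate 1 or 3. Between rd10 GSK and rd10 saline 5 were called, 1 higher and 4 lower, which is 55.6% against 32.9% of all genes (17.6% higher and 15.2% lower). Without rd10 saline replicate 2 or rd10 GSK replicate 1 this count was 3, and without rd10 GSK replicate 3 it was 7. Between wild-type GSK and wild-type saline 0 were called with edgeR, against 0.532% of all genes (0.444% higher and 0.0877% lower). At an unadjusted p under 0.05, 1 was higher there and 1 lower. DESeq2 called 0 as well, and its count of all genes between these groups is given in the last section. In none of the 9 did the difference between genotypes in the response to GSK pass with edgeR and TMM (0 called, against 12.5% of all genes, 7.49% higher and 4.98% lower), although 4 had a lower response in rd10 at an unadjusted p under 0.05. DESeq2 called 1 of these, Tfap2b. The share of all genes that DESeq2 called there is not given here, so that call is not read as a result. The share of all genes at an unadjusted p under 0.05 was not counted, so no count of members at that threshold is read as a result.

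**Figure D1:**
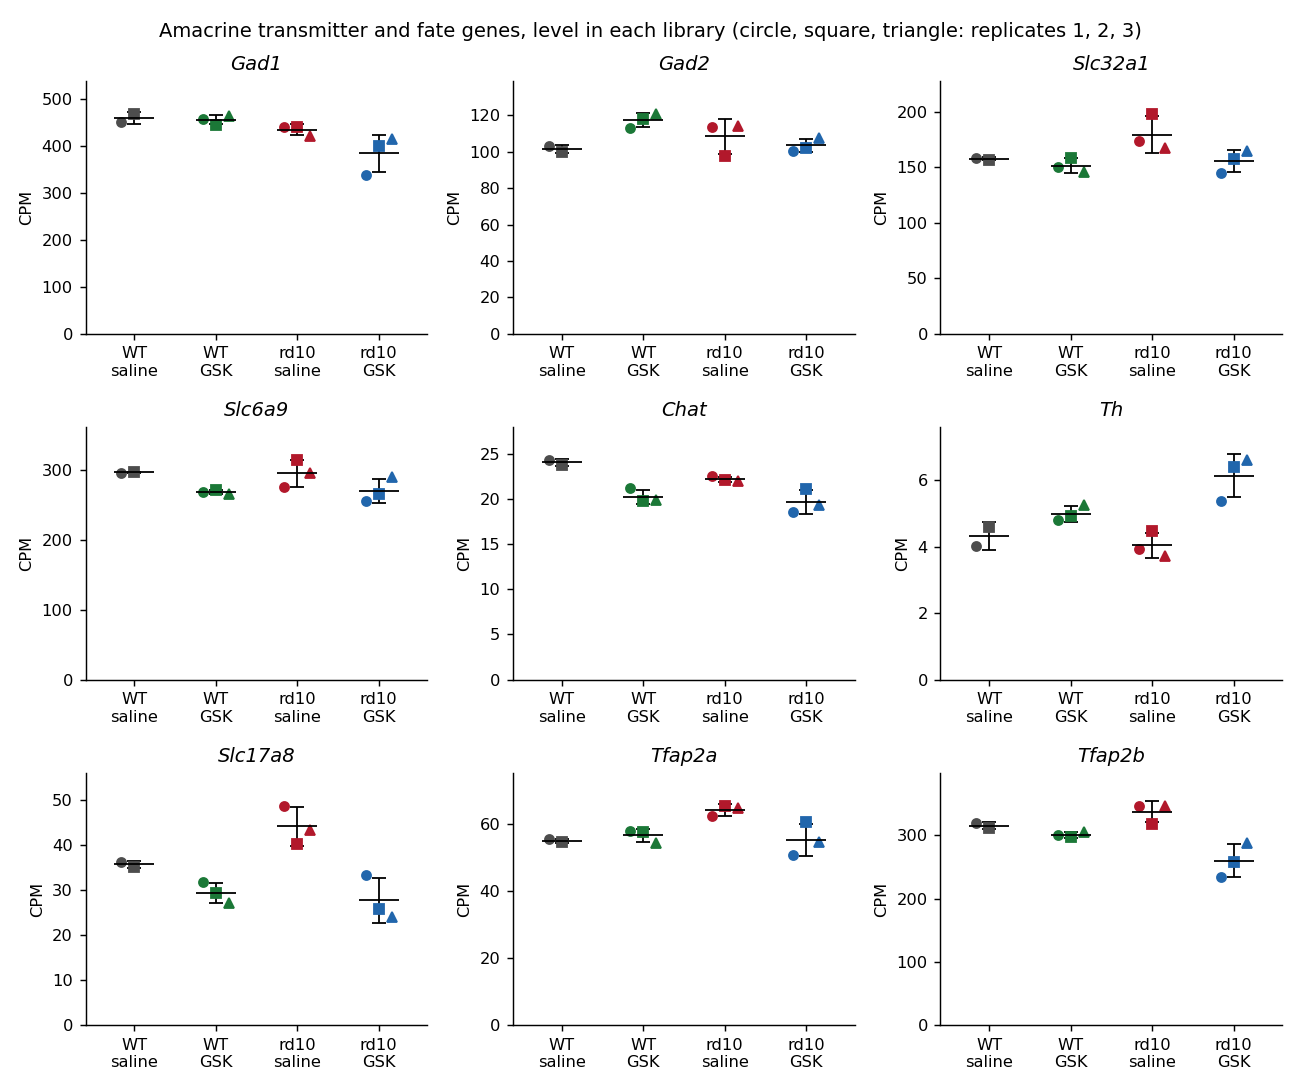
Level of each gene in every library, in CPM (linear axes from 0), by group; circles, squares and triangles are replicates 1, 2 and 3, horizontal bars are group means and whiskers are SD (n = 2 for wild-type saline, 3 for the others). All 3 rd10 GSK libraries lie above all other libraries for Th, between 5.40 and 6.62 CPM, and the rd10 saline libraries lie highest for Slc17a8, between 40.2 and 48.7 CPM.

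The scale decides part of this picture. TMM stands for the trimmed mean of M values. When libraries were scaled instead on genes of bipolar and ganglion cells, so that the amount of rod RNA could not move the scale, the median of all genes between rd10 GSK and rd10 saline moved from 0.01 to 0.39 on the log2 scale. Under that scaling 7 of the 9 rose and 0 fell, where 58.0% of all genes rose and 1.94% fell, and 96.8% of the 10249 called were higher (53.6% of 5621 with TMM). The difference between genotypes in the response to GSK passed there for 3 of the 9, Slc6a9, Chat and Th, all higher, against 32.3% of all genes higher and 1.27% lower. The members' median was -0.18 with TMM and 0.20 with the other scaling, in both cases below the median of all genes. The genes that set that scale differed between these groups themselves with TMM. Bipolar genes summed to 117.4% to 120.3% of wild-type saline in rd10 saline and to 83.5% to 87.8% in rd10 GSK. Ganglion cell genes summed to 88.7% to 91.6% and to 69.2% to 77.0%, and in wild-type GSK to 80.4% to 83.5%. Of the 8 genes of each list 7 fell between rd10 GSK and rd10 saline with TMM, against 15.2% of all genes. Between wild-type GSK and wild-type saline with TMM, ganglion cell genes ranged from -0.41 to -0.06 on the log2 scale and bipolar genes from -0.05 to 0.14. Of the 8 genes of each list, 1 ganglion cell gene fell there and 0 bipolar genes were called, against 0.0877% of all genes lower. How far the drug itself moves that scale was not tested. Between rd10 GSK and rd10 saline only the directions of Th and Slc17a8 were the same under both scalings, so the statements below name the scaling wherever a direction turns with it.

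**Figure D2:**
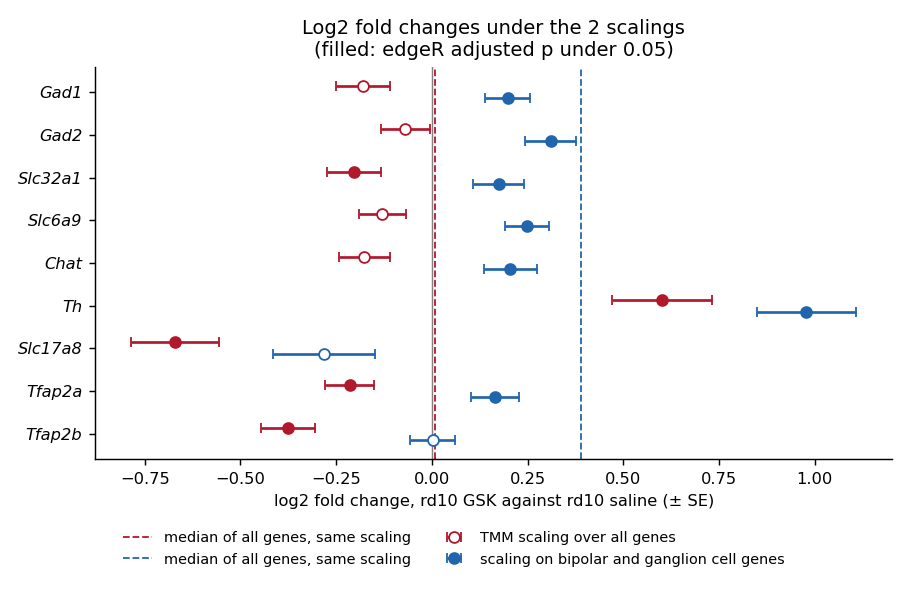
Log2 fold change (± SE) of each gene between rd10 GSK and rd10 saline, with TMM scaling over all genes in red and scaling on bipolar and ganglion cell genes in blue; filled points have an edgeR adjusted p under 0.05 and dashed lines are the median of all genes under each scaling. Th lies to the right of both dashed lines and Slc17a8 to the left of 0 under both scalings, at 0.60 and -0.67 with TMM, while Gad1, Gad2, Slc32a1, Slc6a9, Chat, Tfap2a and Tfap2b change side.

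Gad1, the larger part of the retina's decarboxylase RNA, was at 449.6 and 468 CPM in wild-type saline and at 458, 445 and 463 CPM in wild-type GSK. In rd10 saline it was at 441, 441 and 422 CPM, and in rd10 GSK at 338, 399 and 414 CPM. The rd10 GSK libraries lay below all others, with replicate 1 the lowest, but the mean difference from rd10 saline did not pass (log2 fold change -0.18 ± 0.07 SE, edgeR adjusted p = 0.072, and 0.20 with bipolar and ganglion cell scaling). It passed without rd10 GSK replicate 3 (-0.24, adjusted p = 0.0239). Against wild-type GSK, Gad1 fell in rd10 GSK (-0.25 ± 0.07, edgeR adjusted p = 0.0244). That call was lost with bipolar and ganglion cell scaling (-0.02, edgeR adjusted p = 0.824) and without rd10 GSK replicate 1 (-0.17, adjusted p = 0.0513) or any 1 wild-type GSK replicate (adjusted p = 0.0553 to 0.0765). Gad1 did not pass between rd10 saline and wild-type saline (-0.08, 95% interval -0.25 to 0.09) or between the wild-type groups (-0.01, interval -0.18 to 0.16).

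Gad2, the second decarboxylase, was at 103 and 99.96 CPM in wild-type saline and at 113, 118 and 121 CPM in wild-type GSK, with no overlap. The difference was 0.21 ± 0.07 on the log2 scale and did not pass over all genes (unadjusted p = 0.0139, edgeR adjusted p = 0.347); it passed when only the 2 wild-type groups were fitted (adjusted p = 0.00678). In rd10 saline Gad2 was at 114, 97.4 and 114 CPM and in rd10 GSK at 101, 102 and 108 CPM, and these groups overlapped (-0.07 ± 0.06, edgeR adjusted p = 0.443, and 0.31 with bipolar and ganglion cell scaling). Between the saline groups Gad2 did not pass (0.10 ± 0.07, edgeR adjusted p = 0.314), and it passed without rd10 saline replicate 2 (0.16, adjusted p = 0.034). The rd10 response to GSK minus the wild-type response was -0.28 ± 0.10 on the log2 scale with TMM (adjusted p = 0.0839 with edgeR) and 0.02 with bipolar and ganglion cell scaling, and it passed only without rd10 saline replicate 2, the library lowest in Gad2 (-0.34, adjusted p = 0.00915). The ratio of Gad2 to Gad1 counts, which needs no scaling, was 0.221 ± 0.0107 (SD, n = 2) in wild-type saline, 0.257 ± 0.0093 (n = 3) in wild-type GSK, 0.250 ± 0.026 (n = 3) in rd10 saline and 0.271 ± 0.0231 (n = 3) in rd10 GSK.

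Wild-type GSK lay above wild-type saline for that ratio without overlap, as did rd10 GSK, and the other pairs of groups overlapped. The exact two-sided permutation test gave p = 0.2 for the wild-type pair, the smallest that 2 against 3 libraries allow, so no test of these ratios could pass between those groups. In all, 52 within-library comparisons were tested, and no adjusted p was below 0.371.

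The upstream sequence of Gad2 is shown because it is the 1 promoter among those of the 9 genes with letters read by AP-2 factors, the family of Tfap2a and Tfap2b. The motif GCCNNNGGC, searched on both strands in windows from 250 bases before to 50 bases after each RefSeq start, was found at -242 to -234 and at -121 to -113 (capitals), and in 16.6% of all 32851 promoters of the table. The 250 bases before the start lie at chr2:22622077-22622326 on the plus strand (GRCm38.p6, RefSeq). The GENCODE start of Gad2, chr2:22622205, lies inside this stretch. The match at -121 to -113 is thus within the gene as GENCODE places it.
Gad2: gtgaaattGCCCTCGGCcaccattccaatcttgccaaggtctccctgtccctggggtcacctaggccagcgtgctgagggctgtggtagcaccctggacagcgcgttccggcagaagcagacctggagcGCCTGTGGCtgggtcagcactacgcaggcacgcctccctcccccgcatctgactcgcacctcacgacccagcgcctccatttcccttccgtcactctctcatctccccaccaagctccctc

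Slc32a1, the vesicular carrier shared by GABA and glycine cells, was at 158 and 156 CPM in wild-type saline and at 149.7, 158 and 145 CPM in wild-type GSK. It was at 173, 198 and 167 CPM in rd10 saline and at 145, 157 and 165 CPM in rd10 GSK. The rd10 saline libraries lay above the other 8, and replicate 2 was the highest. With GSK in rd10 it fell with TMM scaling (-0.20 ± 0.07, edgeR adjusted p = 0.0432) and rose by 0.17 with bipolar and ganglion cell scaling. The TMM call is close to the threshold: it was lost when any of 9 of the 11 libraries was left out (adjusted p of 0.0540 to 0.153 in those 9), without both lens-bearing libraries (0.146) and in a fit of the rd10 groups alone (0.136). Between rd10 saline and wild-type saline Slc32a1 did not pass (0.19 ± 0.08, edgeR adjusted p = 0.0785), and it passed without rd10 saline replicate 3 (0.23, adjusted p = 0.0463).

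Slc6a9, the glycine transporter gene, was at 296 and 297 CPM in wild-type saline, 269, 271 and 265 CPM in wild-type GSK, 276, 314 and 295 CPM in rd10 saline and 255, 265 and 289 CPM in rd10 GSK. The rd10 groups overlapped each other, and wild-type GSK lay below wild-type saline. No comparison passed with TMM: the difference was -0.14 ± 0.07 between the wild-type groups (edgeR adjusted p = 0.591) and -0.13 ± 0.06 between the rd10 groups (adjusted p = 0.130; 0.25 with bipolar and ganglion cell scaling, where it passed). Without rd10 GSK replicate 3 the rd10 difference passed too (-0.18, adjusted p = 0.0434), and when only the wild-type groups were fitted that difference passed (-0.14, adjusted p = 0.0466). Between rd10 saline and wild-type saline it was -0.01, with a 95% interval of -0.16 to 0.14. The rd10 response minus the wild-type response was 0.01 ± 0.09 with TMM (edgeR adjusted p = 0.944) and 0.31 with bipolar and ganglion cell scaling, where it passed (adjusted p = 0.0166).

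The Slc6a9 count carries a further doubt. Its exons overlap those of B4galt2 and Ccdc24 on the opposite strand, and the strand setting of the count is not given in the sources used here. B4galt2 had 955 to 1591 counts in a library and Ccdc24 53 to 671, against 5749 to 7274 for Slc6a9. Ccdc24 fell by 2.95 on the log2 scale between rd10 saline and wild-type saline, and B4galt2 fell by 0.40. Whether any of their reads are in the Slc6a9 count was not tested. The ratio of Slc6a9 to Slc32a1 counts was 1.89 ± 0.0198 (SD, n = 2) in wild-type saline and 1.65 ± 0.103 (n = 3) in rd10 saline, without overlap, and 1.78 ± 0.0609 and 1.73 ± 0.0393 (n = 3 each) in wild-type GSK and rd10 GSK.

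With TMM, Chat, the enzyme of starburst cells, was lower with GSK than with saline in every library of both genotypes, as were Tfap2b and Slc17a8. Of all genes 17.3% were lower without overlap in wild type and 20.2% in rd10. The share lower in both was not counted, so this is not read as a result. With bipolar and ganglion cell scaling Tfap2b was at 0.016 in wild type and 0.0019 in rd10. Chat was at 24.3 and 23.7 CPM in wild-type saline and at 21.1, 19.8 and 19.8 CPM in wild-type GSK. It was at 22.5, 22.1 and 21.96 CPM in rd10 saline and at 18.5, 21.0 and 19.4 CPM in rd10 GSK. Neither difference passed over all genes with edgeR (-0.25 ± 0.08, adjusted p = 0.259 in wild type, and -0.18 ± 0.07, adjusted p = 0.0657 in rd10), and with bipolar and ganglion cell scaling the rd10 difference was 0.20. The difference between the 2 responses was 0.07 with a 95% interval of -0.15 to 0.29, and 0.37 with that scaling (adjusted p = 0.0175).

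Th rose in rd10 with GSK, and kept an adjusted p under 0.05 in each of the 20 other settings tried. It was at 4.02 and 4.61 CPM in wild-type saline, 4.81, 4.92 and 5.27 CPM in wild-type GSK, 3.93, 4.48 and 3.73 CPM in rd10 saline and 5.40, 6.41 and 6.62 CPM in rd10 GSK. The rd10 GSK libraries lay above all other libraries. Between rd10 GSK and rd10 saline Th rose 1.52-fold (0.60 ± 0.13, 95% interval 0.32 to 0.89, edgeR adjusted p = 0.00444). The change lay between 0.54 and 0.98 over those settings, with the highest value under bipolar and ganglion cell scaling, and the adjusted p was 0.0301 at most. Rod RNA was also at its highest in rd10 GSK replicate 3 among the rd10 libraries, at 77.6% of wild-type saline, and its part in the Th level was not tested.

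In wild-type mice the GSK libraries also lay above the saline libraries for Th, without overlap, but the difference did not pass (0.21 ± 0.15, edgeR adjusted p = 0.802). The difference between the 2 responses was 0.39 ± 0.20 with a 95% interval of -0.04 to 0.82 (edgeR adjusted p = 0.226), and it passed with bipolar and ganglion cell scaling (0.69, adjusted p = 0.0181). Th is thus not shown to respond to GSK in rd10 alone. Between rd10 saline and wild-type saline Th did not pass (-0.10, 95% interval -0.42 to 0.23), and without wild-type saline replicate 2 that value was 0.01.

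The promoter of Th is shown because Th is the 1 member that rose with GSK under both scalings. A cAMP response element, TGACGTCA, lies at -45 to -38 before the RefSeq start (capitals). It was the 1 match among the promoters of the 9 genes and was found in 1.79% of all promoters of the table. The 250 bases before the start lie at chr7:142899996-142900245 on the minus strand (GRCm38.p6, RefSeq). As GENCODE places it, the Th gene runs on to 142931128, so these bases are upstream of the RefSeq start only.
Th: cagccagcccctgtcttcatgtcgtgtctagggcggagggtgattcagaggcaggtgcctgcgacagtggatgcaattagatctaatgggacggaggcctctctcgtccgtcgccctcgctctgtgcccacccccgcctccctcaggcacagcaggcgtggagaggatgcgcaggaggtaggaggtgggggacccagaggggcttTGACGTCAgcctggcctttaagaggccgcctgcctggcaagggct

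Slc17a8, the marker of the glutamate-releasing class, fell with GSK in rd10. It was at 36.3 and 35.1 CPM in wild-type saline, 31.7, 29.3 and 27.2 CPM in wild-type GSK, 48.7, 40.2 and 43.4 CPM in rd10 saline and 33.3, 25.8 and 24.01 CPM in rd10 GSK. The rd10 saline libraries lay above all other libraries, and rd10 GSK replicate 1 lay above the other 2 of its group. Between rd10 GSK and rd10 saline Slc17a8 fell to 0.628 of its level (-0.67 ± 0.12, 95% interval -0.92 to -0.42, edgeR adjusted p = 0.00123). It kept its call in 19 of 20 other settings. The exception was bipolar and ganglion cell scaling, where the change was -0.28 with an edgeR adjusted p of 0.0889 while the median of all genes was 0.39.

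Between rd10 saline and wild-type saline Slc17a8 was higher by 0.31 ± 0.13 and did not pass (edgeR adjusted p = 0.0799). It passed without rd10 GSK replicate 1 (0.30, adjusted p = 0.0171) or replicate 3 (0.31, adjusted p = 0.0422) and when only the saline groups were fitted (0.30, adjusted p = 0.0222). Between wild-type GSK and wild-type saline it was lower by 0.28 without overlap, with an edgeR adjusted p of 0.561. The difference between the responses was -0.39 (95% interval -0.77 to -0.01, edgeR adjusted p = 0.171), and it passed without rd10 GSK replicate 1 (-0.54, adjusted p = 0.0114). Against wild-type GSK, rd10 GSK overlapped (-0.09, interval -0.34 to 0.17, and 0.16 with bipolar and ganglion cell scaling).

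The upstream bases of Slc17a8 are set beside those of Th because these genes moved in opposite directions. None of the 4 motifs searched (GCCNNNGGC, TGACGTCA, TATAAA and the RE1 core) was found in either of its 2 promoters. The 250 bases before the start of the distal one lie at chr10:89621250-89621499 on the minus strand (GRCm38.p6, RefSeq).
Slc17a8: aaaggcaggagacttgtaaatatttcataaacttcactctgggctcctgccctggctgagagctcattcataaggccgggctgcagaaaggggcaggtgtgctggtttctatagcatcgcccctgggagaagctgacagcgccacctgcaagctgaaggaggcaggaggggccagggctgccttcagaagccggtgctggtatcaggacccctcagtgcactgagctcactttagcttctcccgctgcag

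Ratios within a library do not depend on any scaling, and they were used to see which genes moved against their fellows. Each gene's log2 count was set against the mean of the other 8 in the same library. Th stood at -4.93 ± 0.141 (SD, n = 3) in rd10 saline and -4.07 ± 0.109 (n = 3) in rd10 GSK, a difference of 0.86 with no overlap. Slc17a8 went from -1.05 ± 0.155 to -1.64 ± 0.348 (n = 3 each), a difference of -0.59 with no overlap. Tfap2b differed by -0.25 without overlap, and the remaining 6 genes overlapped between these groups. For each of these 3 the exact two-sided permutation p was 0.1, the smallest that 3 against 3 libraries allow, and 0.371 after adjustment over the 52 comparisons. Since each value is set against the others, a large move of Th or Slc17a8 enters the values of the rest.

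The count ratio of Th to Slc17a8 was chosen after its values were seen. It was 0.111 and 0.131 in wild-type saline, 0.152, 0.168 and 0.194 in wild-type GSK, 0.0806, 0.111 and 0.0861 in rd10 saline and 0.162, 0.248 and 0.276 in rd10 GSK. The GSK libraries of either genotype thus lay above all saline libraries. Across the 11 libraries Pearson's r between the log2 CPM of Th and Slc17a8 was -0.90, the lowest of the 36 pairs, and the libraries share their group differences and their scaling.

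**Figure D3:**
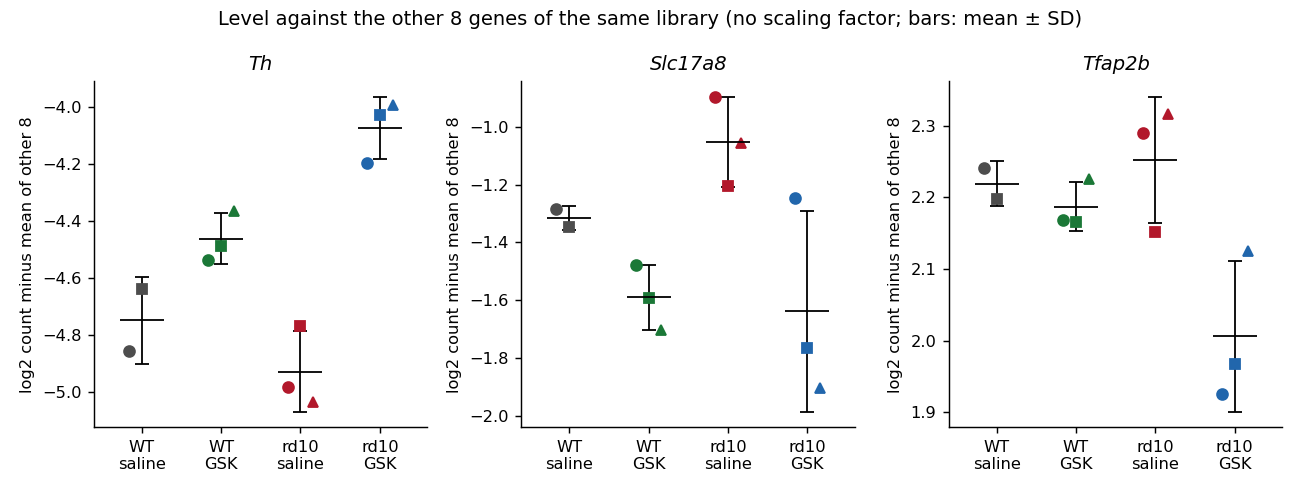
Log2 count of Th, Slc17a8 and Tfap2b minus the mean log2 count of the other 8 genes in the same library, by group; symbols are replicates 1, 2 and 3, bars are means and whiskers are SD, and the axes do not start at 0. Between rd10 saline and rd10 GSK the mean of Th moves from -4.93 to -4.07 and that of Slc17a8 from -1.05 to -1.64, with no overlap between those groups.

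Tfap2a was the 1 gene of the group called between the saline groups. It was at 55.4 and 54.5 CPM in wild-type saline, 57.9, 57.5 and 54.3 CPM in wild-type GSK, 62.2, 65.4 and 64.6 CPM in rd10 saline and 50.8, 60.4 and 54.5 CPM in rd10 GSK. Every rd10 saline library lay above every other library. Tfap2a rose in rd10 saline against wild-type saline (0.22 ± 0.07, edgeR adjusted p = 0.0255). The call was lost with bipolar and ganglion cell scaling (0.16, adjusted p = 0.0976), without both lens-bearing libraries (0.20, adjusted p = 0.110), without either wild-type saline replicate (adjusted p = 0.0971 without replicate 1 and 0.140 without replicate 2) and without rd10 saline replicate 2 (0.0567) or 3 (0.0629). With GSK in rd10 it fell with TMM scaling (-0.22 ± 0.06, edgeR adjusted p = 0.0211) and rose by 0.16 with bipolar and ganglion cell scaling. That fall was lost without rd10 saline replicate 2 (adjusted p = 0.0565) or 3 (0.0638), without rd10 GSK replicate 1 (0.0730) and in a fit of the rd10 groups alone (0.0883).

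Tfap2b, the more abundant AP-2 factor per kilobase, was at 319 and 312 CPM in wild-type saline, 299.7, 297 and 306 CPM in wild-type GSK, 347, 318 and 346 CPM in rd10 saline and 235, 258 and 288 CPM in rd10 GSK. The rd10 GSK libraries lay below all others. With TMM scaling Tfap2b was lower in all 3 rd10 GSK libraries and fell against rd10 saline (-0.37 ± 0.07, edgeR adjusted p = 0.00202) and against wild-type GSK (-0.21 ± 0.07, adjusted p = 0.0462). With bipolar and ganglion cell scaling these values were 0.00 (adjusted p = 0.98) and 0.02 (adjusted p = 0.811). The first kept its call in the 19 remaining settings. The second was lost in 12 of those 19, among them without each of the 2 lens-bearing libraries.

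The AP-2 genes were also compared with each other within libraries. The ratio of Tfap2b to Tfap2a counts was 5.74 ± 0.0205 (SD, n = 2) in wild-type saline, 5.32 ± 0.265 (n = 3) in wild-type GSK, 5.27 ± 0.363 (n = 3) in rd10 saline and 4.72 ± 0.513 (n = 3) in rd10 GSK. The 2 wild-type saline libraries lay above those of wild-type GSK and rd10 saline, and the rd10 groups overlapped. For the response to GSK, the genotype difference was -0.26 ± 0.09 in Tfap2a and -0.31 ± 0.11 in Tfap2b, and neither passed (edgeR adjusted p = 0.1 and 0.0814). In Tfap2a the value was 0.04 with bipolar and ganglion cell scaling and, with TMM, it passed without rd10 GSK replicate 2 (-0.32, adjusted p = 0.0421). In Tfap2b it passed without rd10 saline replicate 2 (-0.34, adjusted p = 0.0471) or rd10 GSK replicate 3 (-0.39, adjusted p = 0.0133).

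Counted over the 9 genes, the libraries of rd10 GSK and rd10 saline did not overlap in 7 (1 higher, 6 lower), where 42.7% of all genes tested did not overlap (22.5% higher and 20.2% lower). Between the saline groups 5 did not overlap (3 higher, 2 lower), against 62.2% of all genes (32.5% higher and 29.7% lower). Between the wild-type groups 6 did not overlap (2 higher, 4 lower), against 34.4% (17.2% higher and 17.3% lower), and between the GSK groups 4 (1 higher, 3 lower), against 44.2% (22.8% higher and 21.4% lower). The summed CPM of the 9 genes was 102% to 104% of the wild-type saline mean in rd10 saline, 96.7% to 97.2% in wild-type GSK and 81.6% to 94.5% in rd10 GSK. Genes of horizontal cells, which carry several of these RNAs, summed to 84.0% to 86.5% in rd10 saline and 62.8% to 89.6% in rd10 GSK, with none of the 5 matched genes at 0. Singly, 1 of these 5 rose and 0 fell between the saline groups (median -0.08, from -0.46 to 1.04), against 21.5% and 19.0% of all genes. Between rd10 GSK and rd10 saline 0 rose and 2 fell with TMM, against 17.6% and 15.2%. Müller glia genes went from 134% to 152% in rd10 saline to 67.8% to 100.2% in rd10 GSK and microglia genes from 588% to 721% to 169% to 366%, and their part in the falls was not tested. Against wild-type GSK, rd10 GSK had 2 of 9 genes called, both lower (Gad1 and Tfap2b), against 26.2% of all genes (15.4% higher and 10.9% lower); with bipolar and ganglion cell scaling 5 were called, all higher, against 43.2% higher and 2.57% lower. The TMM count was 0 without any 1 wild-type GSK replicate, rd10 GSK replicate 1 or both lens-bearing libraries, and 1 without either wild-type saline replicate, rd10 saline replicate 1 or 3, or rd10 GSK replicate 2. The comparisons share groups: rd10 saline enters the genotype and drug contrasts with opposite sign, so its 3 libraries move both.

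**Figure D4:**
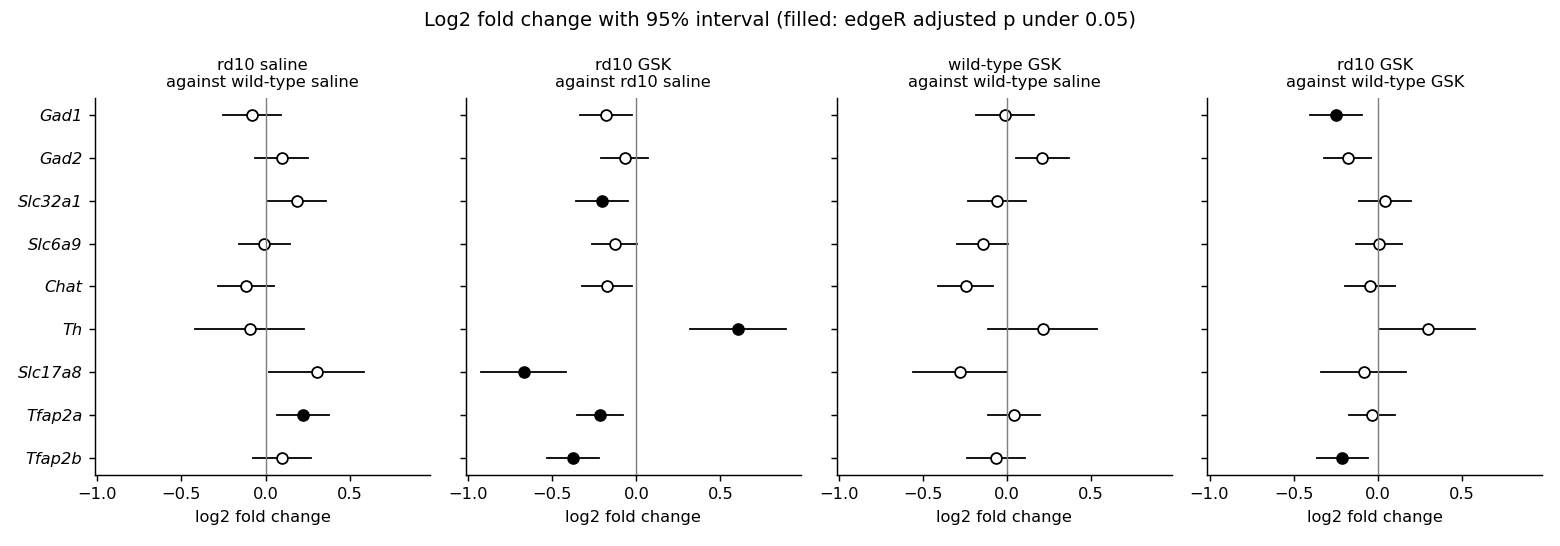
Log2 fold change of each gene with its 95% interval in 4 comparisons with TMM scaling; filled points have an edgeR adjusted p under 0.05. Th (0.60) and Slc17a8 (-0.67) between rd10 GSK and rd10 saline lie farthest from 0, and no point is filled between the wild-type groups; under bipolar and ganglion cell scaling the small falls of Slc32a1 and Tfap2a in the second panel turn into rises and that of Tfap2b is at 0.00.

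For each gene, up to 3 genes of at least 5 CPM whose log2 CPM followed it most closely over the 11 libraries were listed, by Pearson's r. Th was followed by H2afx (0.97), Krt18 (0.96) and Tuft1 (0.94), and Slc17a8 by Neto2 (0.97), Hnrnpa2b1 (0.96) and Ret (0.96). Tfap2b was followed by Apc2 (0.98), Nhlh2 (0.98) and Gucy1a1 (0.97), and Tfap2a by Cib2 (0.97), Zfp827 (0.93) and Msrb2 (0.91). The GABA genes had separate followers: Rtn1, Ap4s1 and Tmeff1 for Gad1 (each 0.96), Atp8a1 (0.95), Tmod2 (0.94) and Ptprt (0.93) for Gad2, and Sema6b (0.96), Elp3 (0.95) and Myl12b (0.94) for Slc32a1. Slc6a9 was followed by Insyn1 (0.95) and Cacng7 (0.92), and Chat by Vwa5b2 (0.96), Rimkla (0.95) and Cyb5d2 (0.94). No gene was on the list of more than 1 member. These are the highest of 12207 candidates or, for Th, 12208, and describe these libraries, which share their groups, depth and scaling.

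The other genes of each transmitter system were counted in lists. Each count is read against all genes tested, of which 21.5% rose and 19.0% fell between the saline groups (median 0.02), and 17.6% rose and 15.2% fell with GSK in rd10 (median 0.01; 58.0% and 1.94% with bipolar and ganglion cell scaling). Among 15 genes of GABA uptake, breakdown and reception, 5 rose (33.3%) and 0 fell between rd10 saline and wild-type saline (median 0.05). The largest rise was of Gabra2, a GABA-A receptor subunit, from 17.6 ± 1.75 CPM (SD, n = 2) to 55.2 ± 7.84 (n = 3), and Abat, the GABA transaminase, rose by 0.38 ± 0.07. Without both lens-bearing libraries or wild-type saline replicate 2, 2 of the 15 rose, and 3 without replicate 1. With GSK in rd10, 0 rose and 11 fell (73.3%, median -0.32), among them Abat (-0.54 ± 0.06, edgeR adjusted p = 0.000106) and the receptor subunit Gabrb2 (-0.44 ± 0.08). Under the bipolar and ganglion cell scaling 4 rose and 1 fell, and neither Abat (-0.16, adjusted p = 0.0562) nor Gabrb2 (-0.06, adjusted p = 0.557) passed. Without the lens-bearing libraries 8 fell with TMM.

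Gabra2 was higher in rd10 with GSK as well as without it: between rd10 GSK and wild-type GSK it rose by 1.72 ± 0.11 (edgeR adjusted p = 1.16e-05), and by 1.65 ± 0.13 between the saline groups (adjusted p = 4.29e-06). In the C57Bl/6J strain Gabra2 is known to be expressed at a low level because of an intronic deletion. Gabra2 lies on the same chromosome as Pde6b, so the strain background and the rd10 mutation cannot be told apart for it. In the GSK comparison of the genotypes, 6 other genes of the list fell with TMM (40%, against 10.9% of all genes), among them Gabrb2 (-0.37 ± 0.08), and 0 fell with bipolar and ganglion cell scaling. The 6 became 10 without rd10 GSK replicate 3, 4 at the fewest when 1 library was left out, and 2 without both lens-bearing libraries.

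Of 11 genes of glycine handling and reception, 2 rose (18.2%) and 1 fell (9.09%) between the saline groups (median 0.13). That is below the share of all genes in each direction, and the 2 became 4 without rd10 saline replicate 2 and 1 without wild-type saline replicate 2 or both lens-bearing libraries. Gldc, the glycine cleavage enzyme, which glia also make, rose from 37.4 ± 0.292 CPM (n = 2) to 125 ± 8.98 (n = 3), or 1.75 ± 0.09 on the log2 scale (edgeR adjusted p = 4.65e-07). The receptor subunit Glrb rose by 0.22 ± 0.06, a call lost with bipolar and ganglion cell scaling and without wild-type saline replicate 2 (adjusted p = 0.11 and 0.0949), and Gphn, the scaffold of inhibitory synapses, fell by 0.21 ± 0.05 (-0.16 and adjusted p = 0.0951 without wild-type saline replicate 1). With GSK in rd10, 0 rose and 5 fell (45.5%, median -0.15; 3 without both lens-bearing libraries, and 1 rose without rd10 GSK replicate 3), led by Glrb (-0.48 ± 0.05), the neuronal glycine transporter Slc6a5 (-0.45 ± 0.08) and Gldc (-0.43 ± 0.08). Scaled on bipolar and ganglion cell genes, 3 rose and 0 fell.

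Of 13 measured genes of acetylcholine handling and starburst cells, 2 rose (15.4%) and 0 fell between the saline groups (median 0.03; 1 fell without rd10 GSK replicate 1): Megf10, a starburst receptor that Müller glia also make, by 0.85 ± 0.13, and Chrna3, a nicotinic receptor subunit, by 0.78 ± 0.15. Megf10 was at 46.1 ± 1.90 CPM (n = 2) in wild-type saline, 49.3 ± 4.05 (n = 3) in wild-type GSK, 83.2 ± 4.74 (n = 3) in rd10 saline and 43.8 ± 7.76 (n = 3) in rd10 GSK. With GSK in rd10, 1 rose (7.69%) and 4 fell (30.8%, median -0.21). Megf10 fell by 0.92 ± 0.11 (edgeR adjusted p = 0.000175), and kept that call with bipolar and ganglion cell scaling (-0.54). Chrm2 (-0.50 ± 0.10) and Megf11 (-0.37 ± 0.07) fell too with TMM, but were at -0.12 and 0.01 with that scaling, where neither passed.

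Chrna3 was also the 1 gene of this list called in wild-type mice, where it rose from 11.0 ± 0.497 CPM (n = 2) to 20.6 ± 0.251 (n = 3) with GSK (0.90 ± 0.15, edgeR adjusted p = 0.0261). The call was lost without any 1 of the 5 wild-type libraries (adjusted p = 0.0913 to 0.388). In rd10 it rose with GSK by 0.37 ± 0.13 (edgeR adjusted p = 0.0461), and by 0.76 with bipolar and ganglion cell scaling. The rd10 call was lost without any 1 of the 11 libraries other than rd10 GSK replicate 3 (adjusted p up to 0.149).

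Of 13 genes of dopamine synthesis, transport, breakdown and reception, 3 rose (23.1%) and 1 fell (7.69%) between the saline groups (median 0.19). The 3 became 5 without rd10 GSK replicate 1 or 3, and the 1 became 0 without either wild-type saline replicate or both lens-bearing libraries. The vesicular monoamine carrier Slc18a2 rose by 0.66 ± 0.14 (adjusted p = 0.0505 without wild-type saline replicate 1) and the receptor Drd1 by 0.38 ± 0.05. Drd4, a dopamine receptor that photoreceptors make, fell by 1.02 ± 0.26 there, a call lost without either wild-type saline replicate (adjusted p = 0.0520 and 0.0709), and rose by 1.24 ± 0.24 with GSK in rd10. Maob, a monoamine oxidase, rose with GSK in wild type (1.36 ± 0.23, edgeR adjusted p = 0.0272) and in rd10 (0.96 ± 0.19, adjusted p = 0.00291), in each case under both scalings. The wild-type call was lost without either wild-type saline replicate (adjusted p = 0.315 and 0.233) and without wild-type GSK replicate 2 or 3 (0.121 and 0.0966).

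Ddc and Slc6a3, 2 of the partners of Th in the dopaminergic cell, were near the limit of reading. Ddc, the next enzyme of the pathway, was at 0.936 ± 0.105 CPM (n = 2) in wild-type saline and 0.967 ± 0.404 (n = 3) in rd10 GSK, and the dopamine carrier Slc6a3 at 0.323 ± 0.0844 (n = 2) and 0.372 ± 0.216 (n = 3). Neither passed in any comparison. Other partners were called: Slc18a2 between the saline groups, as given above, and Gch1, a gene of cofactor synthesis, between the GSK groups. Gch1 was higher in rd10 GSK by 0.81 to 1.89 over 20 other settings, and lost its call in 8 of them. In rd10 with GSK, 2 genes of the list rose (15.4%, Drd4 and Maob) and 3 fell (23.1%) with TMM, among them Drd2 (-0.43 ± 0.07) and Drd1 (-0.20 ± 0.05). With bipolar and ganglion cell scaling 7 rose and 0 fell, with Drd2 at -0.06 and Drd1 at 0.18.

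**Figure D5:**
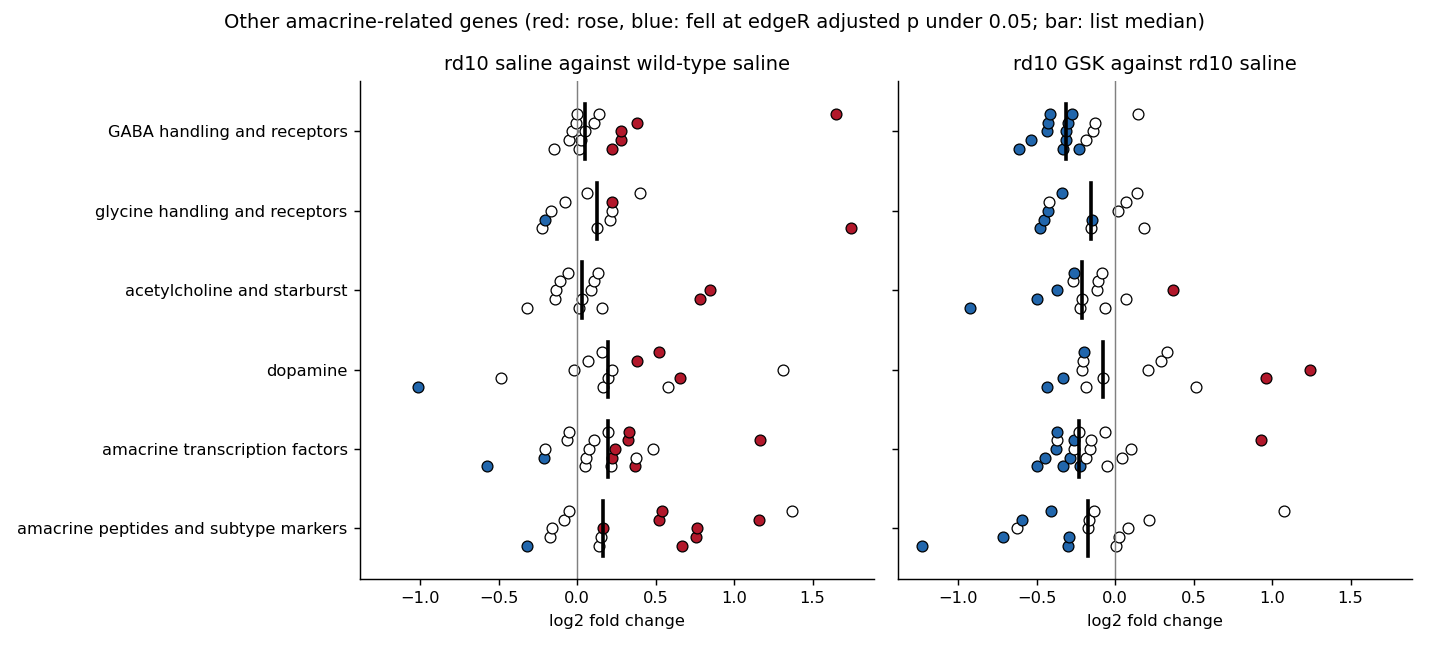
Log2 fold change of each measured gene of 6 lists of amacrine-related genes, between rd10 saline and wild-type saline (left) and between rd10 GSK and rd10 saline (right), with TMM scaling; red points rose and blue points fell at an edgeR adjusted p under 0.05, white points did not pass, and vertical bars are list medians. Of the 15 GABA genes 5 are red on the left and 11 blue on the right, but with bipolar and ganglion cell scaling 4 of them rose and 1 fell in the comparison on the right.

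Of 19 measured amacrine transcription factors, several of which act in other retinal cells too, 6 rose (31.6%) and 2 fell (10.5%) between the saline groups (median 0.20), and 1 rose (5.26%) and 8 fell (42.1%) with GSK in rd10 (median -0.23; 5 fell without rd10 saline replicate 1). Without the lens-bearing libraries 1 rose and 1 fell between the saline groups, and without wild-type saline replicate 1 or 2 the rises were 2 or 1 and the falls 1. The rises were 1 without rd10 saline replicate 1 and 3 without wild-type GSK replicate 1 or rd10 GSK replicate 2. Pax6, which amacrine, horizontal and ganglion cells all use, was at 387 ± 5.38 CPM (n = 2) in wild-type saline, 389 ± 6.59 (n = 3) in wild-type GSK, 487 ± 6.36 (n = 3) in rd10 saline and 374 ± 8.61 (n = 3) in rd10 GSK. It rose between the saline groups by 0.33 ± 0.05 and fell with GSK in rd10 by 0.38 ± 0.05, the latter with TMM only (0.00 with bipolar and ganglion cell scaling). Neurod1, which photoreceptors also make, went the other way: it fell by 0.58 ± 0.12 between the saline groups and rose by 0.93 ± 0.11 with GSK in rd10, under both scalings. Under the bipolar and ganglion cell scaling 6 factors rose and 0 fell with GSK in rd10.

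Of 15 measured peptides and subtype markers, 7 rose (46.7%) and 1 fell (6.67%) between the saline groups (median 0.17). Among the risen were Crh (1.16 ± 0.31), Sst (0.76 ± 0.20) and Pvalb (0.76 ± 0.14). Several genes of this list are made in other retinal cells too, and Calb1 is also among the horizontal cell genes, so their changes do not belong to amacrine cells alone. The falls were 0 to 2 when 1 library was left out: 0 without either wild-type saline replicate or rd10 saline replicate 1 or 3, and 2 without rd10 saline replicate 2 or rd10 GSK replicate 3. Without both lens-bearing libraries 3 rose and 0 fell. Without either wild-type saline replicate 3 rose too; Crh was then lost (adjusted p = 0.0602 and 0.0862), and Sst without replicate 2 (0.0769). With GSK in rd10, 0 rose and 6 fell (40%, median -0.18; 1 rose without rd10 GSK replicate 1): Pvalb fell by 1.23 ± 0.13, Sst by 0.72 ± 0.17 and Vip by 0.59 ± 0.11. Scaled on bipolar and ganglion cell genes, 7 rose and 1 fell, and Pvalb, a calcium-binding protein, kept its fall (-0.85, edgeR adjusted p = 0.000202) while Sst (-0.33) and Vip (-0.21) did not pass. Pvalb also fell with GSK in wild type (-0.85 ± 0.14, edgeR adjusted p = 0.0268) and Cck rose there (0.71 ± 0.12, adjusted p = 0.0212). The wild-type call of Pvalb was lost without any 1 of the 5 wild-type libraries (adjusted p = 0.0532 to 0.260), and that of Cck without any of them but wild-type GSK replicate 2. Penk, an enkephalin precursor, rose between the GSK groups (2.50 ± 0.51, edgeR adjusted p = 0.0117), from 10.8 ± 1.13 to 61.1 ± 19.1 CPM (n = 3 each).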

How the data were processed

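The authors deposited a table of read counts per gene for 11 mouse retina libraries. The submitters' processing notes name bcl2fastq, HISAT2 version 2.1.0, HTSeq and edgeR and the builds NCBIM37 and mm9; how the counting treated strand, and on which annotation, is not given in the sources used here. Per the labels, each animal gave 1 retina. Gene names came from GENCODE M21, which named 32919 of the 37991 identifiers, and the 5072 without a name held 0.627% of the counts. Columns were matched to samples by their names.

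In R 4.3.3, genes were kept by edgeR 4.0.16 (filterByExpr, minimum count 10, minimum total 15), which left 17099, and scaled by TMM. A robust quasi-likelihood model with 1 coefficient for each group was fitted over all 11 libraries, and p-values were adjusted by the Benjamini-Hochberg method over all genes tested, with a threshold of 0.05. Standard errors are of the log2 fold change, and intervals use the fitted spread. All adjusted p-values are edgeR's unless DESeq2 is named. CPM were computed with the TMM scaling, and log2 CPM with a prior count of 2. The common biological coefficient of variation was 0.129. Depth, from 19657030 to 28053367 counts, leaves Th the least precise of the 9. Replicates of a group differed by more than counting noise, so none was merged. Promoters came from the RefSeq table of GRCm38.p6.

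Counts were simulated for 17099 genes with 200 changed. Between rd10 GSK and rd10 saline 73% of 2-fold and 59% of 1.5-fold changes were recovered, with 5.71% false calls. For the genotype difference in the GSK response these values were 52%, 26% and 10.3%. They were 68%, 48% and 7.94% between the saline groups and 68%, 47% and 4.96% between the wild-type groups. Between the GSK groups they were 76%, 62% and 8%. Recovery with as many changed genes as were called in these data was not tested. Alternatives were RLE size factors, scaling on bipolar and ganglion cell genes, no filter, DESeq2 1.42.0, limma 3.58.1 (voom), only the compared groups, the replicate block and leaving out each library. Leaving out both lens-bearing libraries and a term for Xist were chosen after seeing the data. The 9 genes and the lists were chosen with earlier results of these data known. Genes named from the lists are among the up to 3 called genes in each direction with the largest log2 fold change in each list and comparison and, beside each member, the 3 genes of at least 5 CPM with the highest Pearson's r. Ddc and Slc6a3, near the limit of reading, were named after their values were seen, as were the overlapping genes of Slc6a9. Some genes that this rule selects are not reported here.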

Additional observations from a re-analysis of the deposited data

Results flagged for a closer look

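For 9 genes named from the transmitter, fate and subtype lists, none of them one of the 9 genes described above, the response to GSK differed between the genotypes by edgeR's interaction test. That test called 12.5% of all genes tested (7.49% higher and 4.98% lower). It called 26.7% of the GABA list, 18.2% of the glycine list, 7.69% of the starburst list and 13.3% of the subtype markers, all lower. Of the factors 5.26% were called higher and 10.5% lower, and no gene of the dopamine list was called. The difference, rd10 response minus wild-type response on the log2 scale, was -0.56 for Abat of the GABA list. It was -0.66 for Gldc and -0.35 for Glrb of the glycine list and -1.02 for Megf10 of the starburst list. Among the factors it was 1.12 for Neurod1, -0.52 for Bhlhe22 and -0.39 for Pax6, and among the subtype markers -0.90 for Sst and -0.36 for Dab1. With bipolar and ganglion cell scaling the difference passed for Megf10 (-0.72) and Neurod1 (1.43), and for none of the other 7. Sst lost its call in 8 of the 11 fits that left out 1 library, Bhlhe22 and Glrb in 2 each and Dab1 in 1.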

How the results depend on the processing

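Of 45 results (9 genes in 5 comparisons), 7 stayed on the same side of the threshold with the same sign in every setting tried, at most 20 each, and 24 reversed in at least 1. With bipolar and ganglion cell scaling the number of members called was 0 between the saline groups, 3 in the genotype difference of the GSK response and 5 between the GSK groups. The reversed values there were, between rd10 GSK and rd10 saline, Gad1 0.20, Gad2 0.31, Slc32a1 0.17, Slc6a9 0.25, Tfap2a 0.16, Tfap2b 0.0019, Chat 0.20, Megf11 0.0098, Drd1 0.18 and Pax6 0.0021. Between the wild-type groups they were Gad1 0.072, Slc32a1 0.024 and Tfap2b 0.016, and in the genotype difference Gad1 0.13, Gad2 0.020, Slc32a1 0.15 and Tfap2a 0.039. Between the GSK groups they were Gad2 0.051, Tfap2a 0.20, Tfap2b 0.019, Chat 0.19, Slc17a8 0.16, Ebf1 0.045 and Dab1 0.037. All genes called numbered 10249, 5732 and 7827 there for rd10 GSK against rd10 saline, the genotype difference and the GSK groups, against 5621, 2131 and 4484 with TMM, and 96.8%, 96.2% and 94.4% of them were higher, against 53.6%, 60.1% and 58.5%. Between the saline groups 41.8% of 6705 were higher, against 53.0%, and between the wild-type groups 154 genes were called, against 91.

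Slc6a9 between the GSK groups, 0.0073 with TMM, was -0.0026 with RLE size factors, -0.0027 with DESeq2 and -0.015 with the Xist term. Gad1 between the wild-type groups was 0.019 without both lens-bearing libraries and 0.0009 with the Xist term. DESeq2 called 1 member in the genotype difference, and the Xist term left 1 between the GSK groups. The shares of all genes called in these 2 fits are not given here. With only the compared groups fitted, 2 members were called between the saline groups, 3 between rd10 GSK and rd10 saline, 3 between the wild-type groups and 1 between the GSK groups; all genes called fell to 3588 between the rd10 groups and rose to 916 between the wild-type groups. Without both lens-bearing libraries 0 members were called between the saline groups and 0 between the GSK groups, and all genes called were 4081, 3805, 12, 524 and 2213 in the saline, rd10, wild-type, genotype-difference and GSK comparisons. Between the wild-type groups DESeq2 called 193 genes, the Xist term 54. The cause of these shifts was not tested, except that fewer samples enter the fits that leave libraries out.

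Leaving out 1 library gave 0 to 2 members called between the saline groups, 3 to 7 between the rd10 groups, 0 to 2 in the genotype difference and 0 to 3 between the GSK groups. All genes called ranged over 4435 to 7506, 4359 to 6346, 864 to 3139 and 2515 to 5694 in these 4, and 12 to 182 between the wild-type groups. Values that reversed ranged over -0.19 to 0.0055 for Th and -0.064 to 0.029 for Slc6a9 between the saline groups, -0.039 to 0.017 for Gad1 between the wild-type groups and -0.038 to 0.070 for Slc6a9 in the genotype difference. Between the GSK groups they ranged over -0.046 to 0.043 for Slc6a9, -0.10 to 0.019 for Tfap2a, -0.0005 to 0.087 for Slc32a1 and -0.24 to 0.0090 for Slc17a8.

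With the replicate block 2 members were called between the saline groups (Slc17a8 added, 0.35) and 1 in the genotype difference (Slc17a8, -0.45), and 38 of all genes between the wild-type groups. The numbers were not taken to pair the samples. Deviations of same-numbered libraries correlated above 0.1 in 6 of 15 pairs (-0.19 to 0.39), with a median of 0.02 against 0.01 for other-numbered pairs. Of 11 libraries, 8 correlated best with their own number. With 2 libraries in wild-type saline, their deviations are equal and opposite, so those pairs cannot judge a pairing. Whether same-numbered libraries share an effect was not tested. Th, with 84 to 155 counts, has the least depth, and 2 wild-type saline libraries limit every comparison that uses them.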
